A study of Mus musculus with 4 samples.

Results

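The loci of 10 pluripotency factors were examined in mouse embryonic stem cells: Pou5f1, Nanog, Sox2, Klf4, Esrrb, Tfcp2l1, Zfp42, Tbx3, Prdm14 and Dppa3, out of 21631 protein-coding genes on the autosomes and X. Each locus ran from 20 kb before to 20 kb after the gene. It was cut into bins of 1 kb, and the reads over all CpGs of a bin were pooled within each library. A bin was usable with at least 3 CpGs, counting only CpGs read in every library, and at least 10 reads in every library. Of 682 bins in the 10 loci, 613 were usable, out of 1637280 in the genome. The mean level of the 4 libraries placed each bin in 1 of 3 classes: under 20% (promoter-like), 20 to 60% (enhancer-like) and over 60% (background). Ogt iKO libraries count in that mean, so a bin over 60% in controls could still be classed as 20 to 60%.

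Whole-genome bisulfite sequencing had been carried out on 4 libraries. All came from Ogt fl/fl embryonic stem cells, which carry floxed alleles of Ogt, the gene of the O-GlcNAc transferase. In the 2 Ogt iKO libraries the cells had been grown with 4-hydroxytamoxifen (4-OHT) for 6 days and sorted for YFP. In the 2 control libraries they had been grown without 4-OHT for 6 days. The knockout, the drug and the sort for YFP therefore cannot be told apart, and what drives the recombinase is not given in the sources used here. Feeder fibroblasts had been removed by sorting in both groups. Nothing in the labels says that libraries of a group came from separate cultures. P-values therefore measure only the spread between these libraries, in part borrowed across genes, bins or windows, and that spread may be technical. Bisulfite leaves 5-methylcytosine and 5-hydroxymethylcytosine alike unconverted, and a level below is the percentage of reads over CpGs that carried either mark.

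The pluripotency network is a set of transcription factors that bind one another's promoters and enhancers and so keep stem cells self-renewing. POU5F1 and SOX2 bind together at composite sites, and NANOG, KLF4, ESRRB, TFCP2L1 and TBX3 join them in the naive state. CpG-rich promoters of active genes are usually free of methylation, while enhancers bound by such factors are typically only partly methylated, and TET enzymes, partners of OGT, turn 5-methylcytosine into 5-hydroxymethylcytosine there.

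RefSeq promoters (GRCm38.p6, the assembly that mm10 names) were found for 7 of the 10 members, 10 sequences in all. Every one of their 138 CpGs was at a position in the methylation tables. Printed here, 5′ to 3′, are the 250 bases before the start of 4 members, which show how unlike the measured promoters are. Capitals mark CpGs and the octamer core ATGCAAA, a POU-domain binding motif, or its reverse complement TTTGCAT.
Sox2, chr3:34649745-34649994, + strand: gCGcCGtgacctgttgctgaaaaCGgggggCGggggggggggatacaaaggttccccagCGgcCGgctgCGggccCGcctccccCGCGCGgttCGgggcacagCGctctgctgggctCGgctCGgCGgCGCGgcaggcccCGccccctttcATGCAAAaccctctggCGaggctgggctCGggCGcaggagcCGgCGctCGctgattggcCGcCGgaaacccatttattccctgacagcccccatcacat
Nanog, chr6:122707239-122707488, + strand: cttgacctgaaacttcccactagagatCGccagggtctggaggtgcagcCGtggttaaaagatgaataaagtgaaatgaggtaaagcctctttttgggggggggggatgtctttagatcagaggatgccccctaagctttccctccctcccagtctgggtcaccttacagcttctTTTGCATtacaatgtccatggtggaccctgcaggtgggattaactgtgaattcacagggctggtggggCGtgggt
Zfp42, chr8:43307010-43307259, - strand: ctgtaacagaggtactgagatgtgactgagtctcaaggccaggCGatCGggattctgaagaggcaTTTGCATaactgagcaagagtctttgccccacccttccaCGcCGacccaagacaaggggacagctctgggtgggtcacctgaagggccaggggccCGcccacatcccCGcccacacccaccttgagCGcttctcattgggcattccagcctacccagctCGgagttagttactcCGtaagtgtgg
Tfcp2l1, chr1:118627695-118627944, + strand: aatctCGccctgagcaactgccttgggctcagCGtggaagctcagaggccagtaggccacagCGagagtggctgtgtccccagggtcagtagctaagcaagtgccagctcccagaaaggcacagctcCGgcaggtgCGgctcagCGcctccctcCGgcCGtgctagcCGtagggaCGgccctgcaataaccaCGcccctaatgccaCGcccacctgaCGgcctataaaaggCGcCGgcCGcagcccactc
The Sox2 stretch held 27 CpGs, the Tfcp2l1 stretch 16, the Zfp42 stretch 9 and the Nanog stretch 3. Searched on both strands of 300 bases (250 before to 50 after the start), the octamer core was in 4 of the 10 member promoters, namely those of Sox2, Zfp42 and both starts of Nanog, whose windows overlap, and in 4.63% of all 32851 promoters. The GC box GGGCGG was in 4 of the 10 and in 35.7% of all. In the printed Sox2 stretch 0 of 57 and 0 of 68 reads were methylated in the first and the second Ogt iKO library, and 0 of 49 and 0 of 37 in the controls. Zfp42 had 0 of 30, 0 of 13, 0 of 16 and 0 of 20 in the same order. At Nanog Ogt iKO replicate 1 had 0 reads and the others 5, 12 and 9, with 0 methylated. At Tfcp2l1 Ogt iKO replicate 2 had 11 methylated reads of 20, against 0 of 41, 0 of 28 and 0 of 26 in the others. No CpG of that stretch had more than 2 reads in Ogt iKO replicate 2, so a very small number of DNA molecules set this value.

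Each listed CpG was read 4.04 and 3.65 times on average in the Ogt iKO tables and 3.54 and 3.35 times in the control tables. In the loci 7375 of 9460 listed CpGs (78.0%) had a read in every library, and in the genome 79.0%. Ogt itself was covered 1.25 and 1.21 times as deeply as other parts of chromosome X in Ogt iKO libraries and 1.28 and 1.19 times in controls. Of its 45 bins of 1 kb, 0 had less than 20% of the controls' depth in both Ogt iKO libraries. A short deletion would not be resolved by these counts, so the files did not by themselves show the knockout. As a check of cell type, 13 of 25 start or end windows of 18 fibroblast genes were methylated over 60%, and 9 under 20%, against 8496 and 13904 of 26918 windows of all genes. Their pooled level was 32.8% and 34.2% in Ogt iKO and 34.8% and 35.9% in control libraries.

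Each of the 10 loci held more weakly and partly methylated DNA than the median gene, and the make-up varied widely among them. Bins under 20% made up 15.8% of usable bins (97 of 613), bins of 20 to 60% made up 32.5% (199), and bins over 60% made up 51.7% (317). Over the genome these shares were 2.63%, 10.96% and 86.4%. The 2 lower classes together took 83.3% of the Sox2 locus, 70.8% of Tbx3, 67.4% of Pou5f1, 63.6% of Nanog, 60% of Dppa3, 51.9% of Prdm14, 39.0% of Esrrb, 36.4% of Klf4, 28% of Tfcp2l1 and 27.9% of Zfp42. The median gene had 19.7%, so all 10 lay above it, Tfcp2l1 and Zfp42 least. Of the 97 bins under 20%, Sox2 held 19, of which 16 lay over 1500 bp from its annotated start. The end of Sox2 was not counted here. At Pou5f1 5 of 14 lay within 1500 bp of its annotated starts, and 3 within that distance of a start or end of its neighbours Tcf19 and Cchcr1.

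Continuous stretches of weakly or partly methylated bins differed in length and position. They reached 21 kb at Sox2 and Tbx3, 20 kb at Esrrb, 15 kb at Nanog, 12 kb at Pou5f1 and 10 kb at Klf4. Those of Zfp42 (7 kb), Prdm14 (6 kb), Dppa3 (6 kb) and Tfcp2l1 (4 kb) were shorter. The Esrrb stretch lay inside the gene, 102 to 122 kb from its lower-coordinate end, and not at its start. That of Dppa3 lay over the neighbouring gene Gdf3, a TGF-beta family ligand of stem cells. Gdf3, Dppa3, Nanog and Slc2a3 neighbour each other on chromosome 6.

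**Figure D1:**
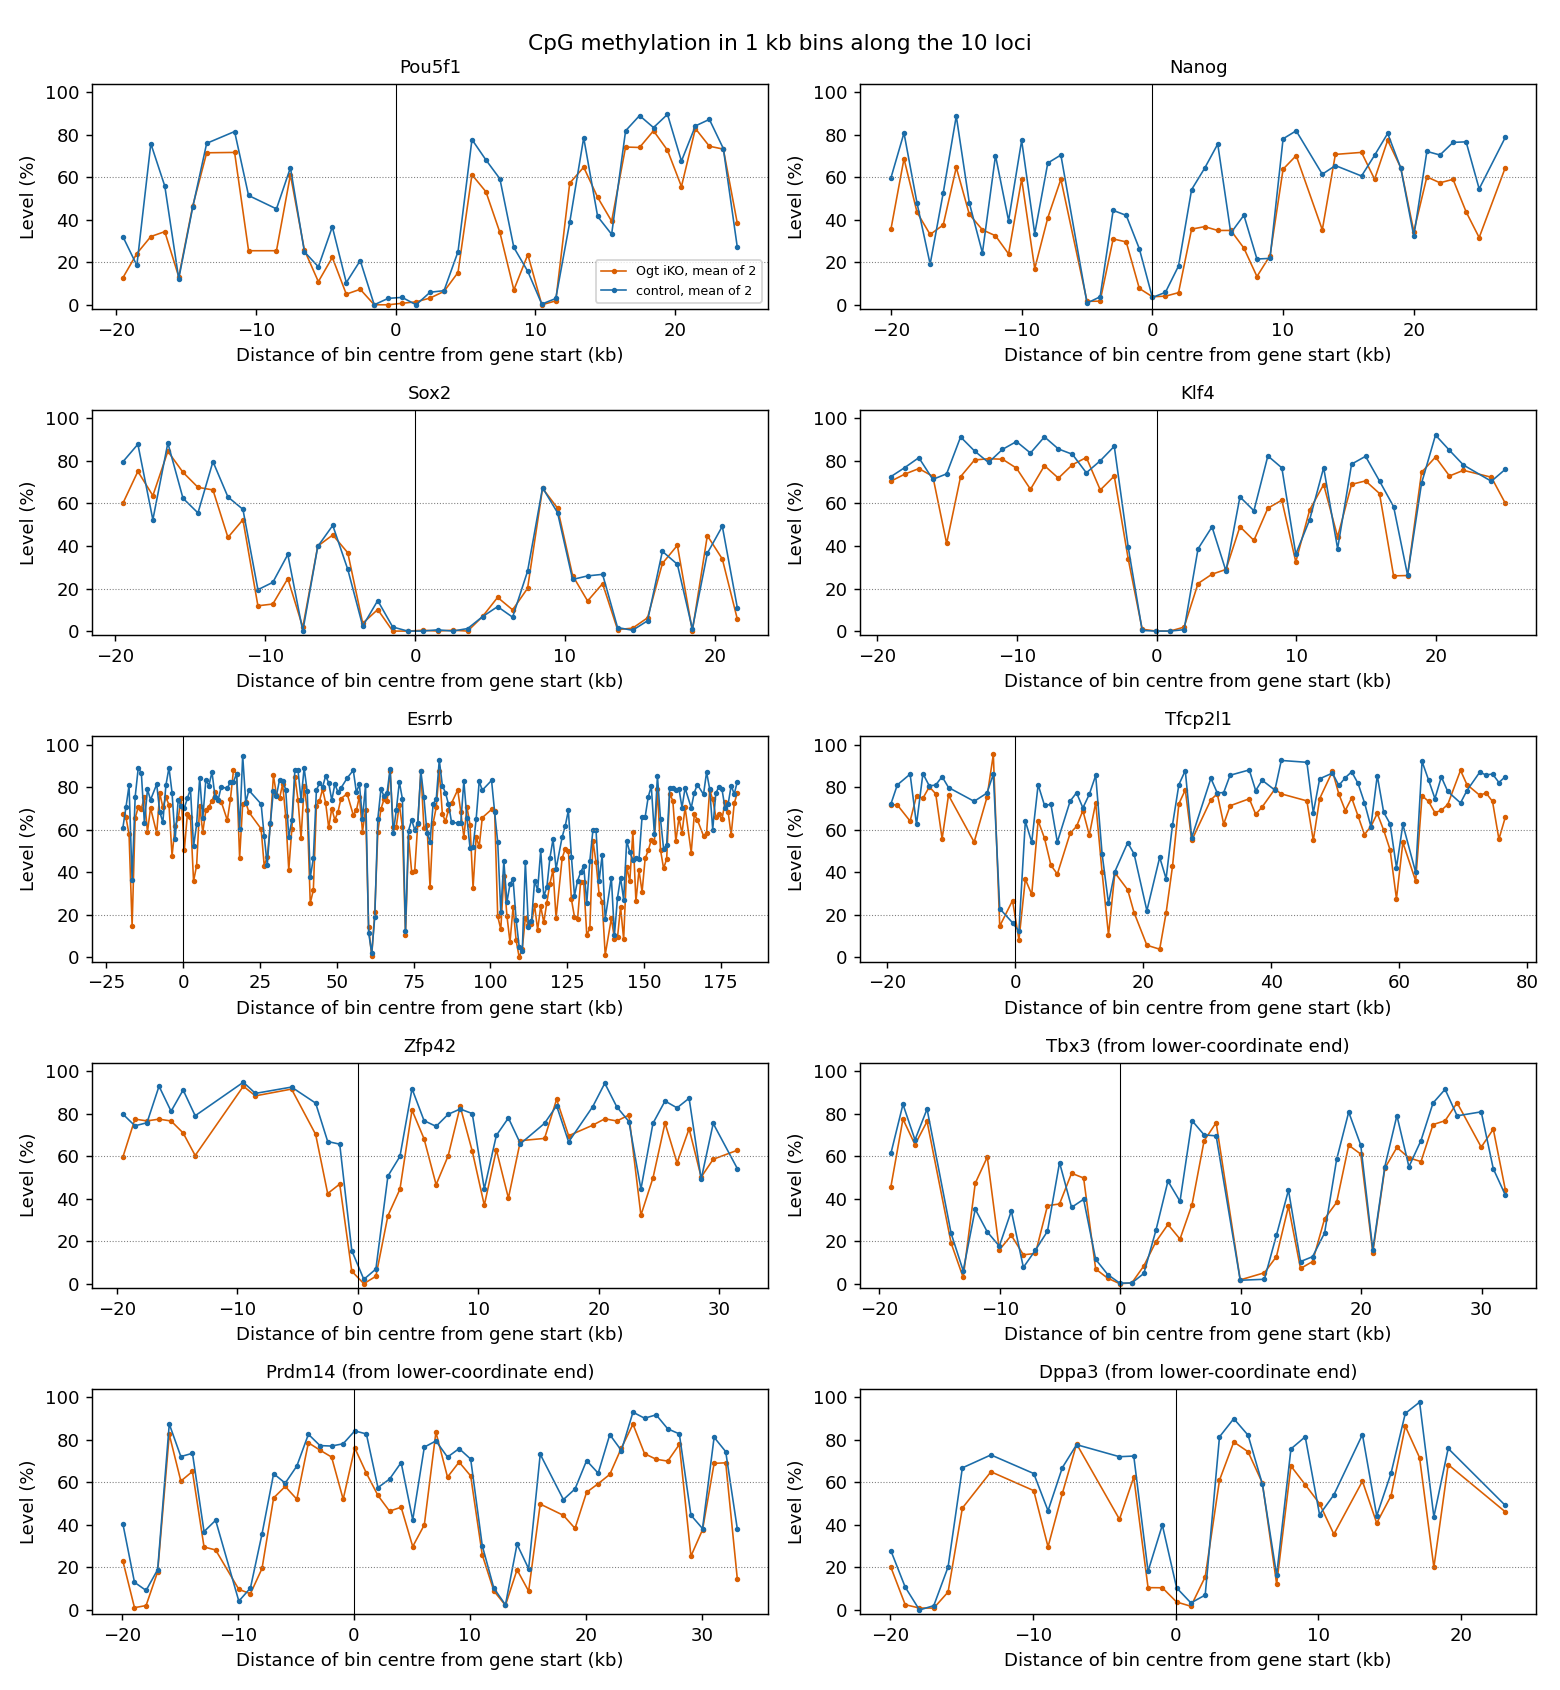
Methylation level (%, vertical) of each usable 1 kb bin against the distance of its centre from the gene start (kb, horizontal; from the lower-coordinate end for Tbx3, Prdm14 and Dppa3); orange points are the mean of the 2 Ogt iKO libraries, blue points the mean of the 2 control libraries, and dotted lines the class limits of 20% and 60%. Levels fall to near 0 around the starts of Sox2, Klf4 and Pou5f1, and in the Esrrb gene the broad trough lies 102 kb or more from the start.

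Methylation of the loci was lower in Ogt iKO cells in every class, by about as much as in the genome. In bins of 20 to 60% the summed level was 36.6% in the first and 33.9% in the second Ogt iKO library, against 44.4% in the first and 47.3% in the second control. The groups did not overlap, and the difference of means was -10.6 points with a pooled SD of 1.98 (n = 2 libraries each). All bins of that class in the genome gave -10.97 points. Bins over 60% stood at 69.9%, 68.5%, 76.3% and 80.9% in the same order, a difference of -9.37 points against -8.06 in the genome. Bins under 20% stood at 6.08%, 4.72%, 7.28% and 7.99%, a difference of -2.24 points against -1.64. A score over chosen members gets no p here, and 2 against 2 libraries could not give an exact permutation p below 0.333.

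**Figure D2:**
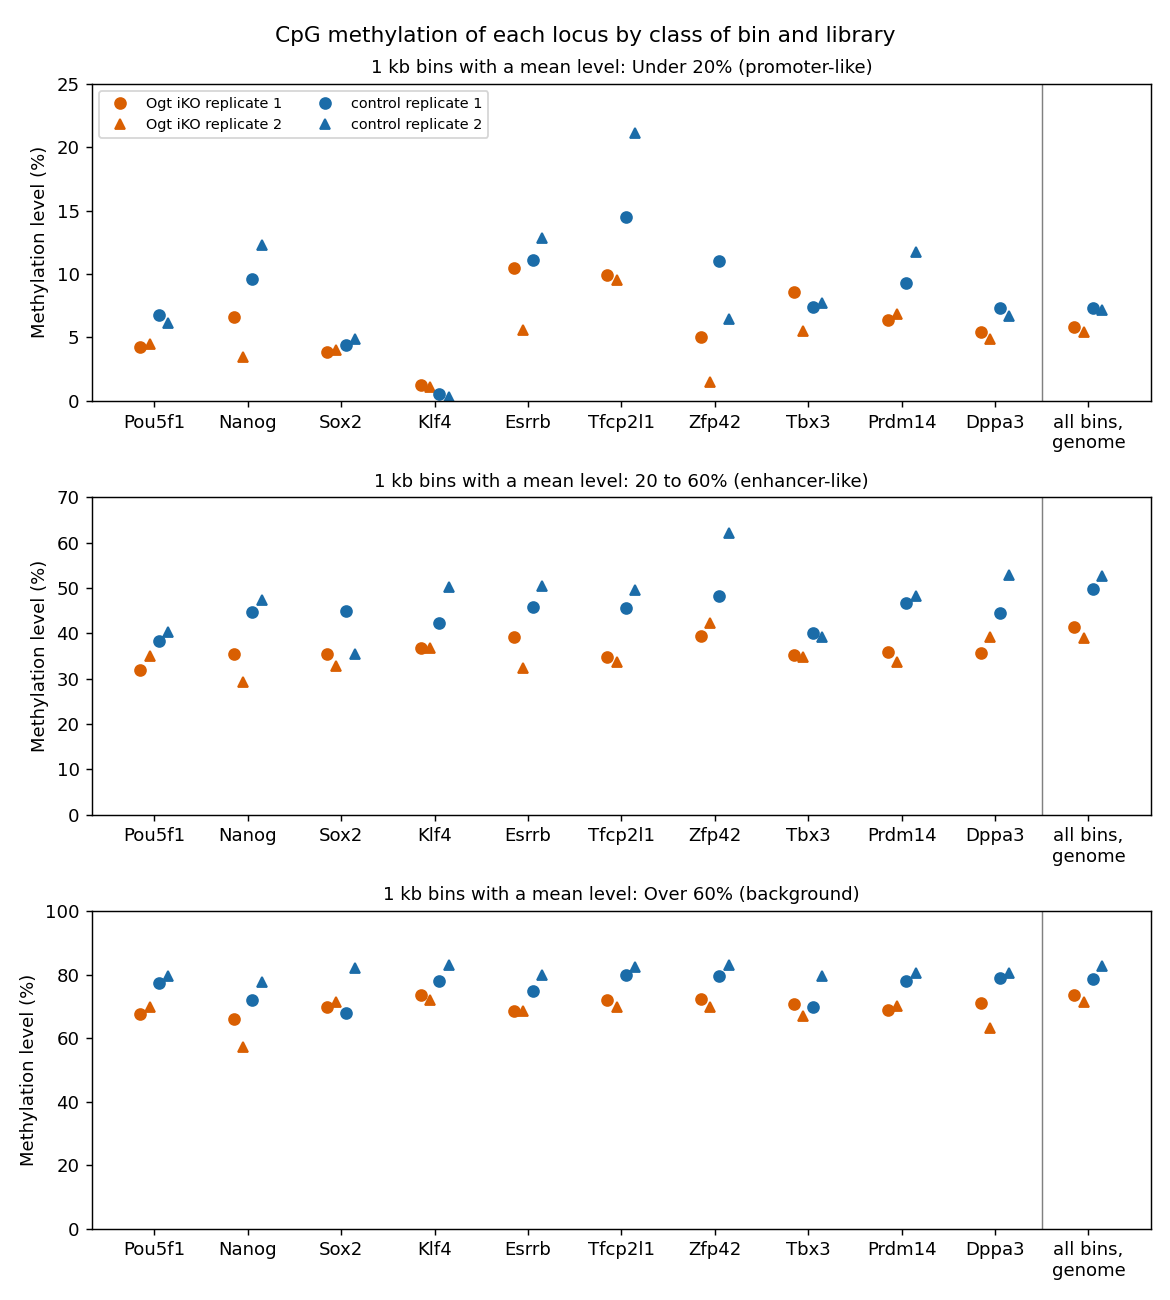
Methylation level (%) of each locus, pooled over its bins of 1 class, in each library; orange is Ogt iKO and blue control, circles are replicate 1 and triangles replicate 2, and the last column gives all bins of the class in the genome. In the middle panel both Ogt iKO libraries lie below both controls at 9 loci and do not at Sox2. Of all genes tested, 83.8% had groups apart and lower in this class.

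Set beside the genome in the same library, the loci were less methylated in both groups in the classes of 20 to 60% and over 60%, but not in the class under 20%. In the 20 to 60% class they lay at -4.86 and -5.05 points from the genome in Ogt iKO cells and at -5.33 and -5.28 points in controls. Loci minus genome thus differed between the groups by 0.35 points (0.0936 pooled SD). This small value has no stable sign: it was -0.41 without the Tbx3 locus and 1.08 without the Esrrb locus. In the class over 60% the loci lay at -3.82 and -2.83 points from the genome in Ogt iKO cells and at -2.28 and -1.78 points in controls, a difference of -1.30 points whose groups did not overlap. It ran from -1.80 to -0.77 over 28 alternatives and was -0.81 without Ogt iKO replicate 1. In the class under 20% they lay at 0.24 and -0.68 points in Ogt iKO cells and at -0.041 and 0.80 in controls. The difference of -0.60 points came with overlapping groups. It was -1.06 without Ogt iKO replicate 1 and -0.14 without Ogt iKO replicate 2.

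Each locus was then tested by class with a quasi-binomial model of methylated and total reads, fitted over all protein-coding genes with dispersions moderated by limma. The call required a Benjamini-Hochberg adjusted p under 0.05 together with 5 points or more between the group means. In the 20 to 60% class 7 of the 10 fell: Esrrb, Nanog, Prdm14, Tfcp2l1, Zfp42, Dppa3 and Klf4. Of all 18441 genes tested, 55.5% were called lower in this class, so a count of 7 of 10 is near the background. The median difference of the members was -11.8 points, and that of all genes -10.7. Pou5f1, Sox2 and Tbx3, not called, had differences less negative than those of 83.6%, 82.8% and 88.9% of genes.

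**Figure D3:**
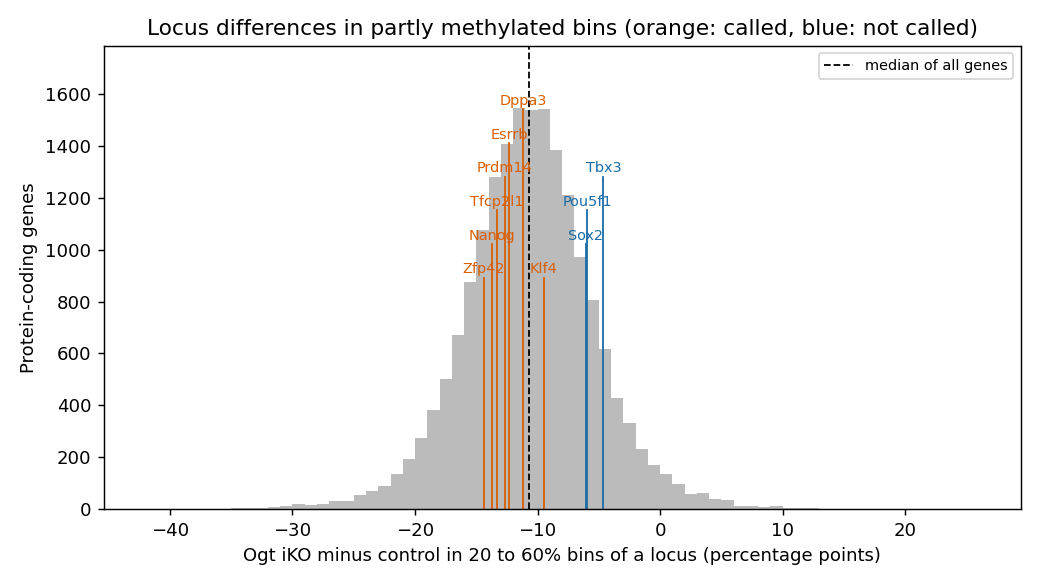
Number of protein-coding genes (vertical) by the Ogt iKO minus control difference of the 20 to 60% bins of their locus (percentage points, horizontal); vertical lines mark the 10 members, orange where called and blue where not, and their heights only separate the names. The members lie between -14.4 and -4.62 points, on both sides of the median of all genes at -10.7.

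Among the core factors, Nanog fell and Pou5f1 and Sox2 did not pass the test. Nanog encodes a homeodomain factor that holds cells in the naive state. Its 21 bins of 20 to 60% stood at 35.5% and 29.2% in Ogt iKO cells and 44.6% and 47.4% in controls. The groups did not overlap, and the difference of -13.7 points had a limma-moderated adjusted p of 0.000154. Inside the gene, the bin at chr6:122712001-122713000, centred 5011 bp past the start, was chosen for the largest decrease of the locus. Its 10 CpGs stood at 35.7% and 34.2% against 72.4% and 78.8%. The bin of the start itself was nearly bare, at 5.56%, 2.00%, 4.17% and 2.70%, and its groups overlapped. The start window (1000 bp before to 500 bp after the start) had 3.45%, 4.44%, 9.30% and 14.7%, with groups apart, and in the bin before that of the start levels were 9.52%, 5.88%, 25% and 27.8%.

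Pou5f1 encodes OCT4, the POU-domain factor without which pluripotency is lost. Its 15 partly methylated bins stood at 31.9% and 35.0% in Ogt iKO cells and 38.3% and 40.4% in controls. The groups were apart but close, and the difference of -5.93 points had a limma-moderated adjusted p of 0.0899. Of 19 alternatives 17 left it not called, with a difference of -2.25 points (adjusted p = 0.524) at class limits of 25% and 50%. It was called with limits of 10% and 70% (adjusted p = 0.0367) and with flanks of 50 kb (0.00225). Only 8 of these 15 bins were lower in Ogt iKO, and their differences ran from -43.7 to 18.4 points. The bin at -43.7, at chr17:35488001-35489000 (-17532 bp from the start), held 22.2% and 41.9% against 69.2% and 82.4% on 17 to 31 reads. The start window held 0 methylated of 103 and of 75 reads in Ogt iKO cells, and 4 of 93 and 1 of 86 in controls. A count of 0 allows up to 2.91% and 4.00% in the Ogt iKO libraries, as far as counting error goes.

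Sox2, the HMG-box partner of OCT4, lies in the gene of the noncoding RNA Sox2ot and had the longest run of weakly methylated bins among the 10. Over the 74 CpGs of its start window 0 of 210, 194, 146 and 130 reads were methylated, which allows levels up to 1.43%, 1.55%, 2.05% and 2.31%. That run, of 11 bins under 20%, surrounded the gene. Its 16 bins of 20 to 60% stood at 35.4% and 32.8% in Ogt iKO cells and 45% and 35.4% in controls. The groups overlapped, control replicate 2 lay with the Ogt iKO libraries, and the difference of -6.08 points had an adjusted p of 0.0754. Without control replicate 2 the difference was -10.9 points (adjusted p = 0.00914, limma-moderated), and without control replicate 1 it was -1.29 (adjusted p = 0.737). Other class limits (10% and 70%), a shifted grid and flanks of 50 kb gave adjusted p of 0.0456, 0.0246 and 0.00458. In all, 15 of 19 alternatives left it not called. Over the whole 21 kb stretch the levels were 11.2%, 11.2%, 14.3% and 13.6%, lower in both Ogt iKO libraries. Among partly methylated Sox2 bins with groups apart, that at chr3:34637001-34638000 had the largest decrease, 46.15% and 41.9% against 62.5% and 63.6%.

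Of the naive-state factors, Esrrb had the lowest adjusted p. Esrrb is an orphan nuclear receptor and the longest member, at 160512 bp, with 59 partly methylated bins, 56 of them inside the gene. These stood at 39.2% and 32.4% in Ogt iKO cells and 45.9% and 50.4% in controls, a difference of -12.3 points (adjusted p = 7.89e-06). The pooled SD of these levels was 4.13 points, and the p rested mostly on dispersion shared across genes. Of the 59 bins 53 were lower in Ogt iKO, and in the genome 82.2% of bins of this class were. In the 20 kb stretch deep in the gene the levels were 23.0% and 13.7% against 23.3% and 33.3%, so Ogt iKO replicate 1 lay just under control replicate 1. Differences also varied by library outside that stretch. The bin at chr12:86510001-86511000, centred 149383 bp from the first start, had 28.3% and 33.3% against 81.4% and 51.0%. The 2 annotated starts were unlike. The first, at 86361117, was methylated at 46.7%, 66.7%, 62.1% and 70.9%, and the second, at 86421644, at 16.5%, 17.7%, 24.1% and 9.36%, and both had overlapping groups.

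**Figure D4:**
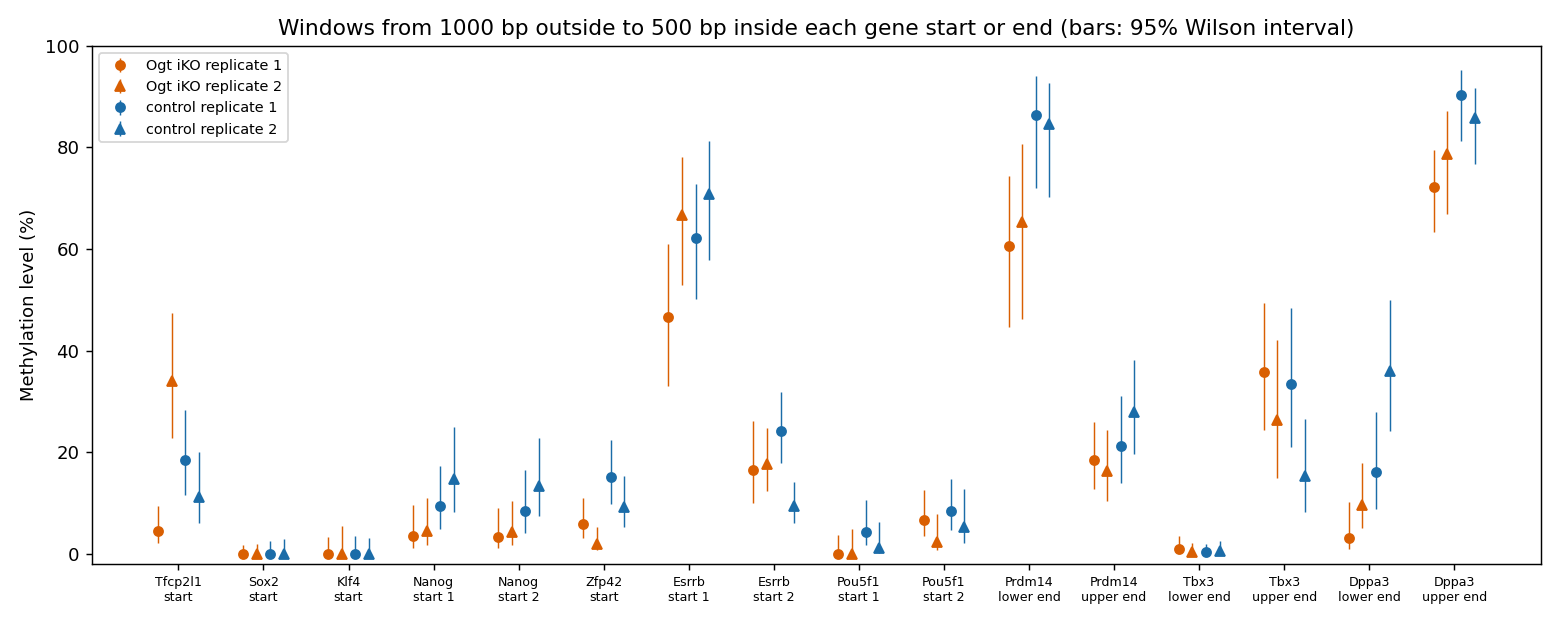
Methylation level (%, vertical) of the windows from 1000 bp outside to 500 bp inside each start, or each gene end where no start was given, in each library, with 95% Wilson intervals (counting error only). Sox2, Klf4 and the lower end of Tbx3 lie at or near 0 in all libraries, and Ogt iKO replicate 2 stands apart at Tfcp2l1.

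Tfcp2l1, a grainyhead-family factor of the naive state, fell by 13.4 points in its 17 partly methylated bins. The levels were 34.9% and 33.7% in Ogt iKO cells and 45.7% and 49.6% in controls (adjusted p = 0.00193), and 16 of the 17 bins were lower, against 82.2% in the genome. The call was lost with bins of at least 5 CpGs (-9.77 points, adjusted p = 0.0578), and with 3 reads per CpG although the difference was then larger (-17.0 points, 0.0659). The bin with the largest decrease lay within the gene, centred 22.55 kb from the start. This bin, at chr1:118650001-118651000, stood at 7.69% and 0% against 41.5% and 52.6%, on 19 to 41 reads. The bin next to it at 118651001 stood at 18.2% and 23.5% against 24% and 50%, and that at 118646001 at 17.9% and 24.2% against 37.3% and 60%. The start window went another way in 1 library: 4.41% and 34.0% against 18.5% and 11.3%. The Ogt iKO libraries thus lay on both sides of the controls in this window.

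Klf4, a Kruppel-like zinc finger factor, had a bare start window and a modest decrease in the partly methylated bins of its locus. Over its 10 kb stretch around the start the groups overlapped, at 17.2% and 17.85% in Ogt iKO cells and 16.7% and 22.1% in controls. In the start window 0 of 111, 66, 105 and 122 reads were methylated, which allows up to 2.70%, 4.55%, 2.86% and 2.46%. These reads lay on CpGs further out: Klf4 had no CpG read in every library from 250 bp before to 50 bp after the start, where control replicate 2 had 0 reads. Its 12 partly methylated bins stood at 36.8% and 36.8% in Ogt iKO cells and 42.4% and 50.2% in controls, a difference of -9.51 points (adjusted p = 0.0210). This call was lost without either Ogt iKO library (adjusted p = 0.0658 and 0.0746), although the difference stayed at -9.52 and -9.51 points, and without control replicate 2 (difference -5.60, adjusted p = 0.258). It was lost as well with 3 reads per CpG (-9.23 points, adjusted p = 0.108), flanks of 10 kb (-5.59 points, 0.223) and limma on logit levels (-9.51 points, 0.0746). The bin with the largest decrease, at chr4:55547001-55548000 (-15025 bp from the start), stood at 41.1% and 41.4% against 76.5% and 71.4%.

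Tbx3, a T-box factor that sustains self-renewal, had the smallest difference of the 10 in this class, -4.62 points, with 35.4% and 34.8% against 40.1% and 39.3%. Its libraries were close within each group and did not overlap between groups, but the adjusted p was 0.0971. The difference ran from -9.48 to -3.84 points over 19 alternatives, of which 16 left it not called. The adjusted p was 0.0209 with all listed CpGs, 0.0339 with flanks of 10 kb and 0.00748 with flanks of 50 kb. Bins moved both ways: 11 of 19 were lower in Ogt iKO. The neighbouring bins 3.97 to 5.97 kb from the lower-coordinate end were apart and lower, the last of them, at chr5:119676001-119677000, at 27.8% and 46.7% against 70% and 83.3% on 12 to 30 reads. In the window of that end 1 or 2 of 204 to 297 reads were methylated in every library.

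Zfp42, Prdm14 and Dppa3, genes tied to methylation or to the naive state, all fell in the 20 to 60% class. Zfp42 encodes REX1, a zinc finger protein used as a naive marker. Its 9 bins stood at 39.4% and 42.2% in Ogt iKO cells and 48.3% and 62.1% in controls, the largest difference of the 10, -14.4 points (adjusted p = 0.00210). It rested on control replicate 2, without which it was -7.48 points (adjusted p = 0.196). The 7 bins of its stretch around the start were all lower in Ogt iKO and summed to 25.6% and 17.4% against 31.2% and 35.3%. Its start window held 9 methylated of 152 and 3 of 163 reads in Ogt iKO cells. In controls it held 19 of 126 and 12 of 132, although the 250 bases printed above held none. The Zfp42 bin with the largest decrease, at chr8:43294001-43295000, had 28.2% and 52.3% against 67.9% and 88%.

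Prdm14, a PR-domain factor that represses the de novo DNA methyltransferases, was the 1 member of the 10 whose partly methylated bins were all lower in Ogt iKO, 19 of 19, with differences from -36.5 to -0.58 points. Of all bins of the class in the genome, 82.2% were lower. They summed to 35.9% and 33.7% against 46.6% and 48.3%, a difference of -12.7 points (adjusted p = 0.000189). The bin at chr1:13119001-13120000 had the largest decrease, 38.7% and 41.4% against 63.9% and 89.3%. Of its gene ends, the upper one had 18.5% and 16.2% against 21.2% and 27.9%, and the lower one 60.5% and 65.4% against 86.5% and 84.6%. Both ends had groups apart.

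Dppa3, also called Stella, protects oocyte and zygote DNA from changes in methylation. Its 12 bins stood at 35.7% and 39.3% in Ogt iKO cells and 44.6% and 52.8% in controls, a difference of -11.2 points (adjusted p = 0.0198). Over 19 alternatives the difference ran from -21.1 to -7.08 points. The smallest decrease came without control replicate 2 (-7.08 points, adjusted p = 0.195), and the call was lost there and without Ogt iKO replicate 1 (-9.41 points, 0.125). It was lost as well with class limits of 10% and 70% (-8.00 points, 0.0547), a shifted grid (-8.28 points, 0.0540) and limma on logit levels (-11.2 points, 0.0567). The largest decrease lay next to the gene, at chr6:122625001-122626000, where 8 CpGs had 5.00% and 15.9% against 32.1% and 47.7%. That bin overlaps the window at the lower end, which had 2 methylated of 67 and 8 of 83 reads in Ogt iKO cells and 9 of 56 and 18 of 50 in controls. A bin inside the gene, at 122628001, went the other way, with 16.2% and 15% against 6.06% and 8%.

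In the class over 60% 7 of the 10 members were called lower and 72% of 21110 genes were. Esrrb had -8.95 points (adjusted p = 1.60e-05), Tfcp2l1 -10.2 (0.00132), Zfp42 -10.3 (0.00907), Prdm14 -9.96 (0.0189), Nanog -13.1 (0.0242), Dppa3 -12.7 (0.0404) and Klf4 -7.73 (0.0485). Nanog went from 72.0% and 77.6% in controls to 66.2% and 57.2%, a larger decrease than in all but 2.90% of genes. This rested on Ogt iKO replicate 2, without which Nanog had -8.61 points (limma-moderated adjusted p = 0.330). With flanks of 10 kb it had -5.47 points (adjusted p = 0.488). Pou5f1 (-9.79, adjusted p = 0.0523), Tbx3 (-5.77, 0.333) and Sox2 (-4.38, 0.580) were not called, and the last 2 had overlapping groups. Pou5f1 was called under 6 of 19 alternatives, among them edgeR (adjusted p = 0.0181) and limma on logit levels (0.0106). Both Sox2 and Tbx3 depended on control replicate 2: without it Sox2 was higher in Ogt iKO, at 2.70 points, and Tbx3 had -0.86. Each was called under 1 alternative, Sox2 with flanks of 50 kb (adjusted p = 0.0110) and Tbx3 without control replicate 1 (0.0434). The number of members called here was 1 without Ogt iKO replicate 2, 3 without Ogt iKO replicate 1 and 4 without control replicate 2. Over all genes the same fits called 3158, 9277 and 9795, against 15197 with the 4 libraries. Esrrb kept its call under all 19 alternatives, Tfcp2l1 under 18, Zfp42 under 15, Prdm14 under 14, Nanog under 13, Dppa3 under 12 and Klf4 under 10.

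In the class under 20% 0 of the 10 were called, as were 0 of 15764 genes (0%). Of all genes 2293 had an unadjusted p under 0.05 in the limma-moderated fit, and edgeR called 21. Groups were apart and lower in Ogt iKO at 8 members, against 40% of genes, but members and genes were not matched for CpGs or reads. Tfcp2l1 had the largest difference, -8.08 points, with 9.89% and 9.57% against 14.5% and 21.1%, but 11.6 points on a shifted grid. Nanog had 6.61% and 3.50% against 9.61% and 12.3%. Klf4, with 4 of 316 and 3 of 274 methylated reads against 2 of 363 and 1 of 363, was higher in both Ogt iKO libraries, on these few reads, but lower with 3 reads per CpG, a shifted grid or flanks of 50 kb.

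When each library's genome-wide level of the class was taken into account, 0 of the 10 loci stood out in any class, at an adjusted p under 0.05. The share of all genes called this way was 1.58% in the 20 to 60% class, 0.114% over 60% and 0% under 20%. The lowest adjusted p was 0.215, at Tbx3 in the 20 to 60% class, where the locus had fallen less than the class as a whole. Unadjusted, this p was 0.0127. At this depth no member's decrease could be told from that of its class.

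No single bin of the loci passed both limits, an adjusted p under 0.05 and 10 points: 0 of 613, against 4 of 1637280 in the genome (0.000244%). At an unadjusted p under 0.05 there were 111 in the loci (18.1%), 109 of them lower, against 12.6% in the genome. These shares mix classes in unlike amounts. By class they were 11.3% against 10.5% under 20%, 26.1% against 20.2% at 20 to 60% and 15.1% against 11.7% over 60%. Bins of the loci also held more CpGs (median 10 against 7) and more reads in the lowest library (median 28 against 21), and were not matched for this. Both Ogt iKO libraries lay below both controls in 262 of the 613 bins (42.7%), against 40.1%, and above both in 23, against 4.28%. In the 20 to 60% class the lower count was 100 of 199 bins (50.3%), against 45.8%. By locus it was 13 of 21 at Nanog, 13 of 19 at Prdm14, 35 of 59 at Esrrb, 10 of 17 at Tfcp2l1, 7 of 12 at Dppa3, 5 of 9 at Zfp42, 7 of 15 at Pou5f1, 5 of 19 at Tbx3, 3 of 12 at Klf4 and 2 of 16 at Sox2.

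The difference varied with the mean level of the bin in the loci as in the genome. That level is the mean of the same 4 libraries. A bin near either end of the scale could differ little between groups, so this pattern was partly set in advance. Members' bins of 0 to 10% had a median difference of -0.93 points, those of 50 to 60% of -15.1 points and those of 80 to 90% of -8.61 points. The genome gave -0.34, -11.7 and -6.14 points. Members fell less than the genome only at 40 to 50% (-10.7 against -11.55 points) and at 90 to 100% (-1.88 against -3.37 points, on 5 member bins). Partly methylated bins inside the 10 genes had -13.5 points (91 bins; 37.3% and 31.3% against 44.8% and 50.8%), and those in the flanks -8.22 points (108 bins; 36.0% and 36.0% against 44.1% and 44.4%). Body minus flank was 1.24 and -4.73 points in Ogt iKO cells and 0.65 and 6.43 in controls, so the groups overlapped, and Esrrb supplied 56 of the 91 bins.

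**Figure D5:**
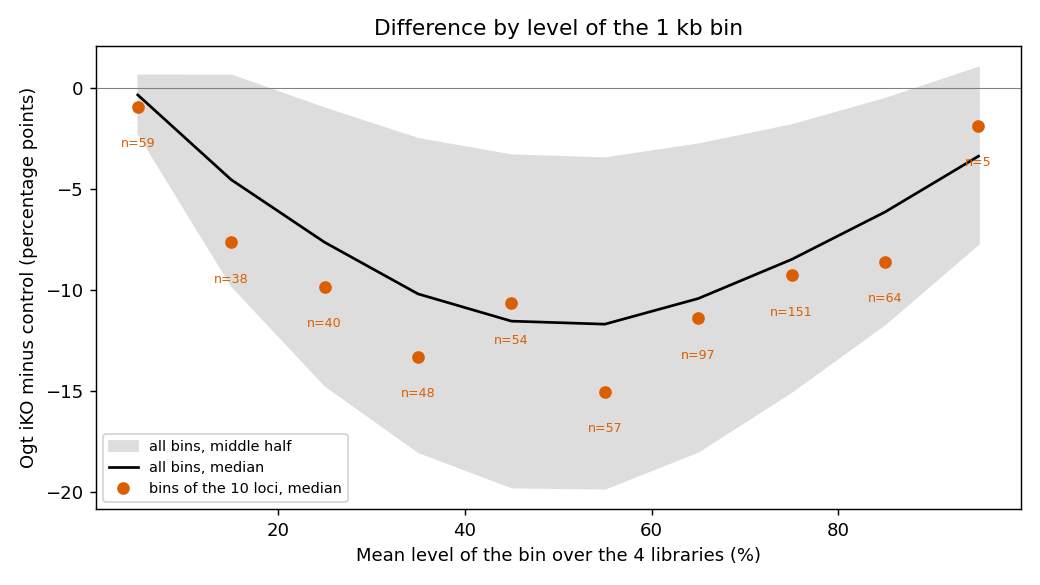
Median Ogt iKO minus control difference (percentage points, vertical) of 1 kb bins by their mean level over the 4 libraries (%, horizontal); orange points are bins of the 10 loci with their number, the black line all bins of the genome, and the grey band the middle 50% of these. Both are nearest 0 in the first and the last step, and each has its most negative median in the step of 50 to 60%.

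The result for single bins depended on which CpGs were counted. With all listed CpGs, read in every library or not, 1776 of 1737159 bins were called (0.102%), 1771 of them lower, and 2 lay in the loci. One, at chr6:122731001-122732000 in Slc2a3, the neighbour of Nanog that encodes a glucose transporter, had 45.5% and 42.7% in Ogt iKO cells and 79.8% and 72.5% in controls. Restricted to CpGs read in every library it was much the same, at 45.5%, 42.0%, 79.3% and 74.0%. The other, at chr8:43295001-43296000 over the 3′ end of Zfp42, had 29.3% and 27.9% against 86.7% and 65.1%. There control replicate 1 had only 15 reads, all on 6 CpGs that every library shared, and on those 6 the levels were 64.3%, 61.5%, 86.7% and 52.8%, so the groups overlapped.

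At the starts, 0 of 16 windows of the 10 members and 0 of 26918 windows in all (0%) passed the same limits. At an unadjusted p under 0.05 there were 2 of the 16, the lower end of Prdm14 and the upper end of Dppa3, against 7.99%. Both were methylated over 60%. Groups were apart and lower in Ogt iKO in 8 of 16 windows, against 36.2%, and apart and higher in 0, against 6.23%. Only 10 of the 16 were starts, and the others were gene ends. The 8 include both starts of Nanog, whose windows overlap, and both ends of Prdm14 and of Dppa3, so they are not independent. Mean levels were under 20% in 11 windows, and in 13904 of all 26918.

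Other genes of the pathway were read against the same background in the 20 to 60% class. There 55.5% of all genes were called lower, 1.58% were called relative to the genome, and the median was -10.7 points. Of 28 other pluripotency genes 21 were called lower at 20 to 60%: Klf2, Klf5, Sall4, Utf1, Fgf4, Dppa2, Dppa4, Dppa5a, Nr5a2, Stat3, Lifr, Il6st, Tdgf1, Gdf3, Zfp281, Tcl1, Tcf3, Tcf7l1, Jarid2, Lefty2 and Nodal. Their list had a median of -14.4 points. Of 12 formative and primed genes 5 were called lower, Lef1, Sox4, Foxd3, Sall2 and Eomes, with a list median of -7.02 points. Relative to the genome 2 of the 28 were called, both lower: Klf5, which binds many of the same sites as Klf4 (38.0% and 39.1% against 56.2% and 57.3%, relative adjusted p = 0.0411), and Gdf3 (28.0% and 28.4% against 42.3% and 59.95%, relative adjusted p = 0.0394). Of the 12, 2 were called relative to the genome in the higher direction. Neither Otx2 nor Pou3f1 was called in the group test without the genome offset (quasi-binomial model, adjusted p = 0.185 and 0.319). Otx2, a homeodomain factor of the formative state, had 53.3% and 47.5% against 43.1% and 39.2% (relative adjusted p = 0.0434). Pou3f1, encoding OCT6, had 45.1% and 45.1% against 44.0% and 38.1% (relative adjusted p = 0.00307). The Gdf3 span shares bins with that of Dppa3, which was not called relative to the genome. Its controls lay far apart (SD 12.5 points). Relative calls of single genes in these lists were not repeated under the alternatives. Over those, the number of all genes called relative to the genome in this class ran from 48 to 327.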

How the data were processed

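Per the file names and headers, the authors deposited 1 table per library with read counts at each CpG of mm10 (methylated reads and all C or T reads), made with BSMAP and methratio, and both strands of a CpG were merged. BSMAP and Picard stand in the submitters' processing notes, and their versions are not given in the sources used here. Also deposited per the file headers were an expected count (C or T reads corrected for likely variants from reads of the other strand), used only as an alternative, and a methylation fraction, not used. Each table was matched to the sample whose title gives that group and number.

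Levels were computed from the deposited counts with Python 3.11.15, NumPy 2.4.6 and SciPy 1.17.1. Only CpGs that every library had read were kept. Classes of a locus were tested with at least 10 CpGs and 30 reads in every library, and start windows with at least 5 CpGs and 10 reads. The quasi-binomial model had group as its only term. Its Pearson dispersion was moderated with limma 3.58.1 in R 4.3.3, with 1 as its lower bound. P-values of the F tests were Benjamini-Hochberg adjusted over all features of the genome. In the class over 60% limma gave all genes the same dispersion. The relative test used each library's genome-wide logit level of the class as an offset. edgeR 4.0.16 and limma on logit levels (0.5 reads added to each side) were alternatives. Neighbouring CpGs share fragments and reads carry no molecular identifiers, so counts are not independent molecules, and Wilson intervals and the limits for a count of 0 (3 reads) cover counting error only. Neighbouring genes share bins.

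Genes were placed by RefSeq annotation of GRCm38.p6. Named by rule were all 10 members, every called bin, each locus's 20 to 60% bin with the largest decrease among those with groups apart, and called genes of the other lists. The bin with the largest decrease had a control mean over 60% at Pou5f1, Nanog, Sox2, Klf4, Esrrb, Zfp42, Tbx3 and Prdm14. That mean was 47.05% at Tfcp2l1 and 39.9% at Dppa3. Most of these bins thus entered the class through their Ogt iKO levels. The bin of the start was printed for Nanog only, and other starts were given as windows. Other bins were named after their values were seen. The members and lists were chosen with earlier results of these data known.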

Additional observations from a re-analysis of the deposited data

How the results depend on the processing

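About 4 reads per CpG and 2 libraries per group limit these results: single bins, starts and the sums of a locus under 20% are not resolved, and only its sums in the other two classes are. Called decreases of Nanog, Esrrb and Prdm14 in the 20 to 60% class held under all 19 alternatives, and the number of members called there ran from 5 to 10, while that of all genes ran from 4980 to 13784. Of 568 values of single loci 46 lost and 17 gained a call. Start windows and single bins are almost never called at this depth under any setting, so their lack of change says nothing about stability. Where values moved, the cause was not tested.

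The summed difference of the 10 loci was -0.95 points under 20% with class limits of 10% and 70%, and -3.46 as an unweighted mean of bins. With classes set on the replicate 1 libraries and values taken from replicate 2 it was -13.7 points at 20 to 60% and -12.3 over 60%, and the reverse gave -7.46, -6.51 and, under 20%, -1.35. Loci minus genome under 20% was 0.35 in that reverse setting. At 20 to 60% loci minus genome reversed to -0.059 (all listed CpGs), -0.32 (limits 25% and 50%), -0.39 (classes from replicate 1), -0.10 (10 kb flanks), -0.36 (50 kb flanks), -0.33 (unweighted), -0.12 (without Sox2) and -0.41 (without Tbx3). It moved to 0.80 (bins of 5 CpGs), 0.17 (bins of 1 CpG), 0.60 (limits 10% and 70%), 0.67 (classes from replicate 2), 0.042 (without Pou5f1), 0.73 (without Nanog), 1.08 (without Esrrb), 0.53 (without Tfcp2l1), 0.57 (without Zfp42) and 0.60 (without Prdm14).

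Over the genome, called bins numbered 1776 with all listed CpGs (2 in the loci), 9 with the effective count and 11 with the grid shifted. They numbered 0 with 3 reads per CpG, bins of 5 CpGs or of 1 CpG, deep CpGs removed, or limma on logit levels. Genes called at 20 to 60% were 4980 with 3 reads per CpG and 6692 with limits 25% and 50%. Relative to the genome, genes called at 20 to 60% were 48 with all listed CpGs, 76 with 3 reads, 184 with bins of 1 CpG, 65 with limits 25% and 50% and 100 with 10 kb flanks. Over 60% they were 63 with all listed CpGs, 14 with 3 reads, 4 with the effective count and 2 with deep CpGs removed. They were 99 with limits 25% and 50%, 80 with the grid shifted, 58 with 10 kb and 73 with 50 kb flanks. Under 20% edgeR called 21 genes. Leaving out 1 library at a time gave 0 called bins, 6049 to 9782 genes at 20 to 60%, 3158 to 18095 over 60%, 1 to 9 members over 60%, and relative calls of 100 to 175 and 11 to 42; the lone library was then assumed to vary like the other group.

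Replicate numbers are shared across groups, and the sample titles do not say whether same-numbered libraries were paired. Their deviations correlated at -0.0445 over loci in the 20 to 60% class. At this depth that value can neither show nor exclude a pairing. With the replicate block 0 bins were called, 8333 genes and 2 members (Esrrb and Tfcp2l1) over 60%, and 15 genes relative to the genome over 60%. The 7 member calls at 20 to 60% held under the block.

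Of values without a call, 8 of single loci and 10 of start windows changed sign. Under 20% Sox2 was at 0.14, Klf4 at -4.28 and Tbx3 at 2.95 points with 3 reads per CpG, Klf4 at -1.08 and Tfcp2l1 at 11.6 with the grid shifted, and Klf4 at -0.50 with 50 kb flanks. Of the starts, Esrrb at 86421644 was at -3.22 with all listed CpGs. In windows of 250 bp before to 50 bp after, Esrrb at 86361117 was at 2.27 and Tbx3 at -0.60 (lower end) and -2.06 (upper end). Without 1 library, Tbx3 under 20% ran from -2.05 to 0.99, Sox2 over 60% from -11.5 to 2.70, and the starts of Tfcp2l1 from -10.5 to 19.1, of Esrrb at 86361117 from -19.9 to 0.15 and at 86421644 from -7.04 to 7.71, and the ends of Tbx3 from -0.0100 to 0.59 (lower) and -2.25 to 15.8 (upper).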

Other observations

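Some bins of the loci were more methylated in both Ogt iKO libraries than in both controls, 23 of 613 (3.75%), against 4.28% of bins in the genome. None was called, and those named here were picked after their values were seen. The largest such difference in the 20 to 60% class lay at chr5:119659001-119660000, below the lower-coordinate end of Tbx3, where 6 CpGs stood at 59.1% and 60% in Ogt iKO cells and 40% and 8.70% in controls. The bin before it had 52.8% and 41.7% against 35.5% and 34.6%. In the Esrrb gene the bin at chr12:86507001-86508000 had 57.8% and 60% against 39.0% and 52.9%, between neighbours that were lower in Ogt iKO. Tbx3 had 7 of the 23 bins, Esrrb 5 and Pou5f1 4, while Sox2, Zfp42 and Prdm14 had 0.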
